A study of Mus musculus with 9 samples.

Results

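A set of 10 genes often used as markers of aged haematopoietic stem cells (HSCs) was followed across HSCs sorted from the bone marrow of wild-type mice. The genes, Clu, Nupr1, Gda, Sult1a1, Aldh1a1, Alcam, Cavin2, Dsg2, Tgm2 and Selp, were taken by name, from a list drawn up with earlier results of these libraries known. All 10 were among the 19454 genes listed and among the 14461 genes with enough counts to be tested. The 9 libraries, each made from the polyadenylated RNA of 1500 sorted cells, fall into 3 groups of 3. In the inhibition plus spermidine group, called the spermidine group here, neurons of the brain regions that the labels name mPFC and PAG were inhibited by chemogenetics and the mice received a spermidine supplement. The inhibition group had the same inhibition without the supplement. For the control group the labels name no intervention. Chemogenetic inhibition silences neurons that carry an engineered receptor when its drug is given, and the library names contain AAV (adeno-associated virus, the usual carrier of such a receptor). The labels do not name the virus promoter, the surface markers of the sort, the age or sex of the mice, or the animal behind each library.

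HSCs are rare cells that renew themselves and give rise to all blood lineages. With age they increase in number, favour the myeloid and platelet lineages over the lymphoid lineage, and transcribe more of a set of genes that encode membrane, adhesion, stress and metabolic proteins. Spermidine is a polyamine that promotes autophagy and is needed for the maturation of a translation factor, and its level falls with age in many tissues. The 10 genes belong to several parts of this signature. Clu encodes clusterin, a secreted chaperone, and Nupr1 a stress-induced nuclear protein. Gda, Sult1a1, Aldh1a1 and Tgm2 encode enzymes. Alcam, Dsg2 and Selp encode adhesion proteins of the cell surface, and Cavin2 a coat protein of caveolae, the small pits of the plasma membrane.

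Total counts were between 16096276 and 25360256 per library, and a gene without any count could still lie at up to 0.117 to 0.184 CPM (3 counts of a library), by counting error alone. CPM is a gene's count divided by the TMM-adjusted total of its library, scaled in the usual way. Nothing in the labels says that libraries of a group came from separate mice, so the p-values measure the spread between these libraries, which may be technical. Not all markers of the labelled cell type were clearly present in the control group. A list of 12 HSC markers summed to 330 to 338 CPM in spermidine libraries, 256 to 267 CPM in inhibition libraries and 212 to 215 CPM in control libraries. The list counts Cd34, which is also on the list of genes lower in aged HSCs given below. Cd34 averaged 78.7 CPM in the spermidine group, 55.7 CPM in the inhibition group and 9.21 CPM in the control group. The sums were not taken without it. Of these 12 markers, 7 were higher and 5 lower with inhibition against control at an edgeR adjusted p under 0.05 (36.2% and 36.1% of all tested genes). Their median log2 fold change was 2.17. With spermidine against control 8 were higher and 3 lower (41.0% and 37.1% of all tested genes), with a median of 2.29. Procr, the HSC surface protein EPCR, averaged 7.59 CPM in the spermidine group and 4.10 CPM in the inhibition group, but 0.125 CPM in the control group, about the level a count of 0 allows. Ly6a (Sca-1) averaged 94.5 CPM in the spermidine group, 83.5 CPM in the inhibition group and 6.21 CPM in the control group, whereas Slamf1 (CD150) averaged 13.8 CPM in the spermidine group, 17.6 CPM in the inhibition group and 104.5 CPM in the control group. Markers of other cells differed between the groups as well. Neutrophil granule genes summed to 21874 to 22479 CPM in spermidine libraries, 60825 to 62589 CPM in inhibition libraries and 5370 to 5552 CPM in control libraries. Megakaryocyte and platelet genes summed to 196 to 207 CPM in spermidine libraries, 185 to 197 CPM in inhibition libraries and 3186 to 3225 CPM in control libraries. Erythroid genes summed to 336 to 354 CPM in spermidine libraries, 711 to 764 CPM in inhibition libraries and 1830 to 1872 CPM in control libraries. Most of that control sum was Car1, at 26.0 CPM in the spermidine group, 29.7 CPM in the inhibition group and 1597 CPM in the control group. Of 10 erythroid genes tested, 5 were higher and 5 lower with inhibition against control (36.2% and 36.1% of all tested genes). The part these other cells play in the results below was not tested, and in bulk libraries fewer cells of a type and less RNA per cell cannot be told apart.

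Because the 10 genes are described by their transcript levels, 4 of their promoters are shown, chosen to cover the response patterns found below other than that of Clu. Nupr1 was lower with spermidine than with inhibition alone, Sult1a1 had the largest fold change of the 10, Cavin2 was the gene that fell with inhibition, and Selp was called in the comparisons with control but not between spermidine and inhibition. The sequences are credited to RefSeq on GRCm38.p6, where 7 of the 10 genes were matched in the promoter table used here. They run from 250 bases before the annotated start to 50 bases from it, on the strand of the gene. They cover chr7:126625421-126625720 (minus strand) for Nupr1, chr7:126676369-126676668 (minus strand) for Sult1a1, chr1:51288876-51289175 (plus strand) for Cavin2 and chr1:164115014-164115313 (plus strand) for Selp. Capitals mark matches to any of the motifs searched.
Nupr1: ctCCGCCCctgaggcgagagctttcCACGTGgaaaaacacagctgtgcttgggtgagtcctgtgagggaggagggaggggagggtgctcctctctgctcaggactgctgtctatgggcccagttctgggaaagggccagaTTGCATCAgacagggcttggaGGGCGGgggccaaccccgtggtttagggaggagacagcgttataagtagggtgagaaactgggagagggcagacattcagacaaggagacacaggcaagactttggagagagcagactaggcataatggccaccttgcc
Sult1a1: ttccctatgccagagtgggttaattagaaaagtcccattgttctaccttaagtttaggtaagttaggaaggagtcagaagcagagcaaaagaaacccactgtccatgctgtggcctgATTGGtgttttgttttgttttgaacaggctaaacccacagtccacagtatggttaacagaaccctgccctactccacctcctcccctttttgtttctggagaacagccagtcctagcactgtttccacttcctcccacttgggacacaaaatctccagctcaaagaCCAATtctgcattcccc
Cavin2: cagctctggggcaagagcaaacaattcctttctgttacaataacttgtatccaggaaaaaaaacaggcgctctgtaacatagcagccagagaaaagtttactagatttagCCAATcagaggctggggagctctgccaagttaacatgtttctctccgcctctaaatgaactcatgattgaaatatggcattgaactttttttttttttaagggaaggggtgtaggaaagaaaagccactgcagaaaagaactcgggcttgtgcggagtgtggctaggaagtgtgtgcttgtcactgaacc
Selp: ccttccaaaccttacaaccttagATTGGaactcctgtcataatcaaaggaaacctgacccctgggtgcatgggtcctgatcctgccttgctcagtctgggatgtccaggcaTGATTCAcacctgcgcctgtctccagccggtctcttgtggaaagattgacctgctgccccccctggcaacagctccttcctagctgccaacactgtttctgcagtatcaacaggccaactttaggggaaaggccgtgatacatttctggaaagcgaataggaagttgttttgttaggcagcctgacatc
Matches were sought on both strands for the GATA factor motif AGATAA, the CCAAT box, the TATA box read as TATAAA, the AP-1 motif TGANTCA and the CRE motif TGACGTCA. The search also covered a composite of ATF4 and C/EBP sites read as TGATGNAA, the E-box CACGTG, the RUNX motif TGTGGT, the ETS motif CCGGAAG, the GC box GGGCGG, and GAANNTTC, a pair of inverted heat shock element units. The Nupr1 window held the composite, as TTGCATCA, 110 bases before the start, the E-box 225 bases before it and a pair of GC boxes. Of all 32851 RefSeq promoters of this length, 3.97% held the composite, 7.15% the E-box and 35.7% the GC box. A CCAAT box stood 133 bases before the Sult1a1 start, 140 bases before that of Cavin2 and 227 bases before that of Selp, and 37.4% of all promoters held this motif. Sult1a1 held another CCAAT match 33 bases after its start. Selp also held an AP-1 match, TGATTCA, 139 bases before its start, as did 7.81% of all promoters. These matches describe letters in a window, and no binding was measured.

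With inhibition 9 of the 10 genes were higher than in control and Cavin2 was lower, as the plot of CPM by library shows. Sult1a1, Gda and Selp had the largest rises, and Clu, Nupr1, Alcam and Tgm2 rose at least 2-fold as well. All 10 passed the test of inhibition against control (edgeR's quasi-likelihood test, Benjamini-Hochberg adjusted p under 0.05 over all tested genes), but so did 72.4% of all tested genes, so that passing the test is common to most of the transcriptome here. The split by direction was more uneven, 9 higher against 1 lower, where 36.2% of all tested genes were higher and 36.1% lower. The median log2 fold change of the 10 was 1.53, beside 0.02 over all tested genes and 2.17 over the 12 listed HSC markers, Cd34 among them. In 8 of the 10 the change was at least 2-fold, which 29.0% of all tested genes reached. Inhibition and control libraries did not overlap for any of the 10, as for 74.5% of all tested genes (37.4% higher and 37.1% lower).

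**Figure D1:**
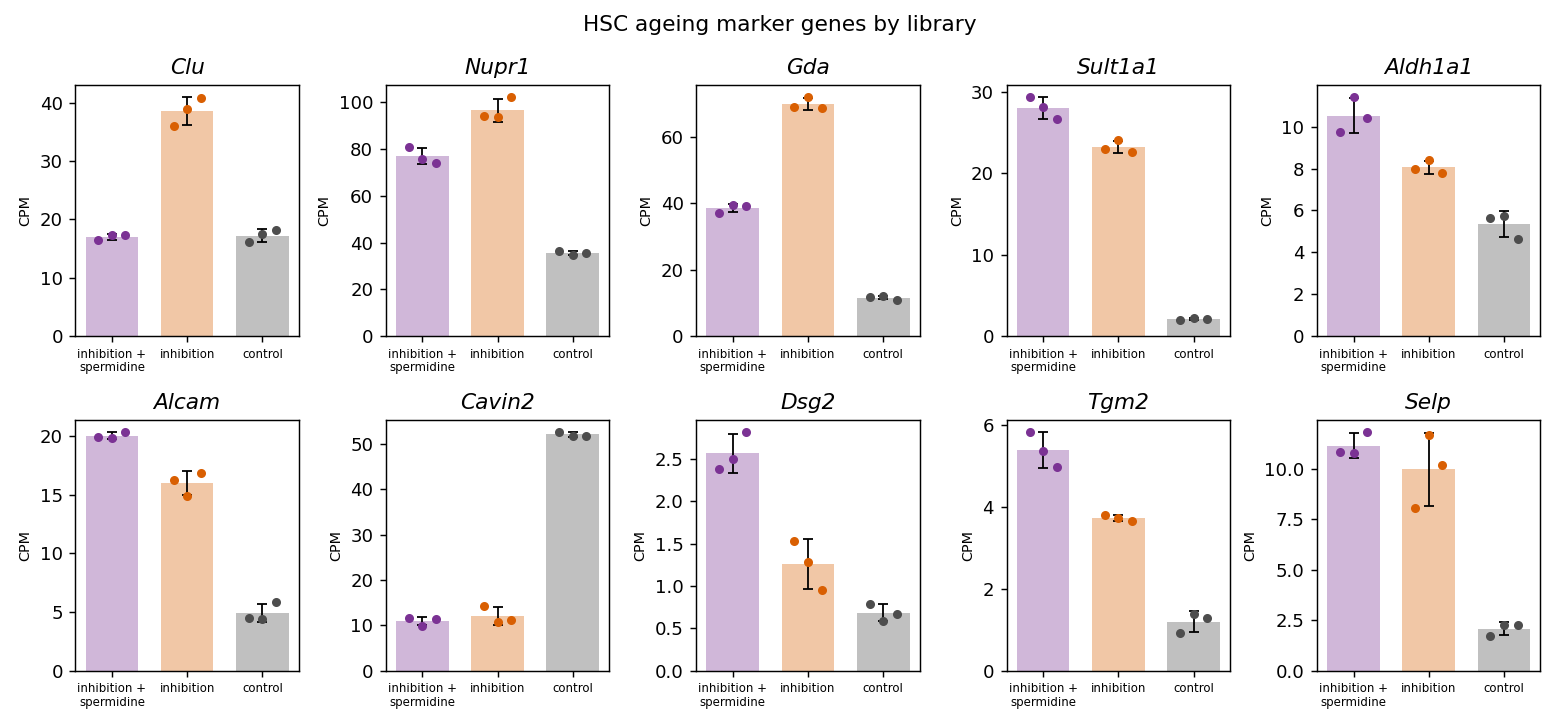
CPM of each of the 10 genes in the 9 libraries (points), with the mean (bar) and SD (error bar) of the 3 libraries of each group, each panel with its own axis from 0. Inhibition libraries stand apart from control libraries in every panel, above them for 9 genes and below them for Cavin2, while spermidine libraries overlap control libraries for Clu and lie above inhibition for Dsg2.

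With spermidine added to inhibition, the 10 genes split. Clu, Nupr1 and Gda were lower than with inhibition alone, Sult1a1, Aldh1a1, Alcam, Tgm2 and Dsg2 were higher, and Cavin2 and Selp did not pass the test. That made 8 of 10 past the threshold, where 58.1% of all tested genes were called, with 5 higher (29.1% of all tested genes) and 3 lower (28.9%). Only Clu and Dsg2 changed by at least 2-fold, against 12.7% of all tested genes. Spermidine and inhibition libraries did not overlap for 8 of the 10, where 62.8% of all tested genes did not, and these were the same 5 higher (32.1%) and 3 lower (30.7%). Set against control, spermidine libraries were higher for 8 of the genes (41.0% of all tested genes), lower for Cavin2 (37.1%) and not called for Clu, so that 9 of 10 were called where 78.1% of all tested genes were. In 8 of the 10 this difference was at least 2-fold (32.9% of all tested genes). Spermidine and control libraries did not overlap for 9 of the 10 (79.8% of all tested genes), 8 of them higher (42.1%) and 1 lower (37.7%). The 3 comparisons share their libraries and are not independent of each other. The calls of Clu, Nupr1 and Selp in the comparisons with spermidine depend on scaling, as given at the end.

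**Figure D2:**
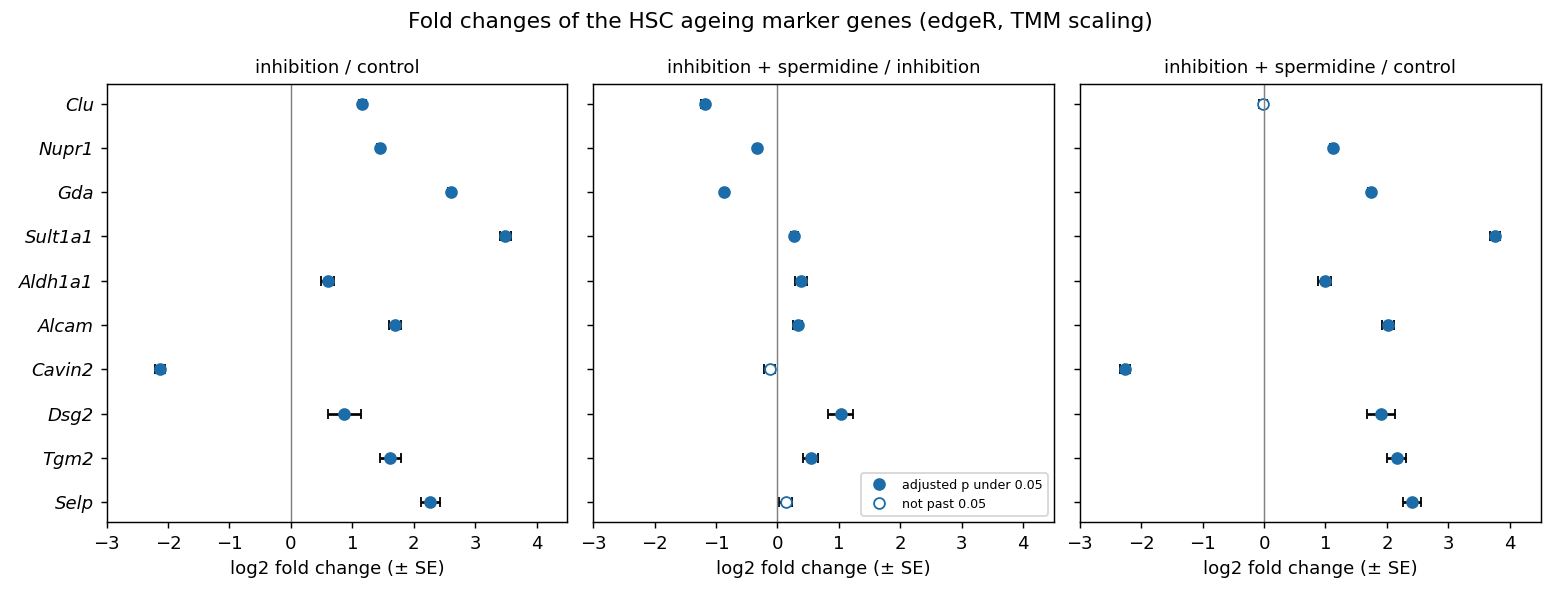
Log2 fold change with its SE for each of the 10 genes in the 3 comparisons, filled where the adjusted p is under 0.05. Clu sits at 1.16 for inhibition against control, -1.18 for spermidine against inhibition and -0.02 for spermidine against control, and Cavin2 sits at -2.13, -0.13 and -2.26.

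Among the secreted and stress proteins, Clu (chr14:65968483-65981547, plus strand, GENCODE M21 on mm10 as for all genes here) had 16.4, 17.3 and 17.3 CPM in spermidine libraries, 36.0, 38.9 and 40.8 CPM in inhibition libraries and 16.1, 17.5 and 18.1 CPM in control libraries. The inhibition libraries stood about level with each other and above all 6 others, and the ranges of the spermidine and control groups overlapped. Clu rose 2.24-fold with inhibition (log2 fold change 1.16, SE 0.062, edgeR adjusted p = 2.59e-11). It was lower with spermidine than with inhibition alone (log2 fold change -1.18, SE 0.060, edgeR adjusted p = 8.24e-11). Spermidine and control libraries differed by -0.02 (log2, 95% interval -0.16 to 0.12, edgeR adjusted p = 0.781). Among all tested genes, 4.04% showed the same calls as Clu in the 3 comparisons.

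Nupr1 (chr7:126623249-126630861, minus strand) had 81.1, 76.0 and 74.2 CPM in spermidine libraries, 94.0, 93.6 and 102 CPM in inhibition libraries and 36.5, 34.6 and 35.6 CPM in control libraries. No library of a group overlapped another group, with spermidine between inhibition and control and nearer to inhibition. The log2 fold change was 1.44 for inhibition against control (SE 0.048, edgeR adjusted p = 4.42e-14) and -0.33 for spermidine against inhibition (SE 0.043, edgeR adjusted p = 9.17e-06). This difference depended on the scaling. With DESeq2 size factors it was -0.35 (DESeq2 adjusted p = 4.38e-09), but with library totals in place of TMM factors it was -0.06 (edgeR adjusted p = 0.19). In TPM Nupr1 averaged 103 ± 4.34 in the spermidine group and 104 ± 3.94 in the inhibition group (SD, n = 3 each). Against control, spermidine libraries stayed higher by 1.12 on the log2 scale (SE 0.049, edgeR adjusted p = 1.69e-12). The composite and E-box matches shown above lie in its promoter window, whose start is inside the bounds GENCODE gives for the gene.

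The enzymes rose with inhibition to different extents. Gda, guanine deaminase of purine breakdown (chr19:21391307-21473445, minus strand), had 37.2, 39.4 and 39.1 CPM in spermidine libraries, 69.3, 72.2 and 68.8 CPM in inhibition libraries and 11.8, 11.9 and 10.9 CPM in control libraries. The 3 groups formed 3 separate bands, inhibition highest and control lowest. Its log2 fold change was 2.61 with inhibition (SE 0.052, edgeR adjusted p = 5.34e-17), -0.86 for spermidine against inhibition (SE 0.042, edgeR adjusted p = 5.40e-11) and 1.74 for spermidine against control (SE 0.055, edgeR adjusted p = 2.20e-14). The levels of Gda followed the order of the neutrophil granule genes given above, highest with inhibition and lowest in control. The sum of the monocyte and macrophage genes had the same order, at 2158 to 2247 CPM in spermidine libraries, 5427 to 5502 CPM in inhibition libraries and 910 to 937 CPM in control libraries. Lyz2 was the largest part of it with inhibition, at 4342 CPM. Not every gene had this order. Of 9 tested, 8 were higher with inhibition against control (36.2% of all tested genes). But with spermidine against control 4 were higher and 1 lower (41.0% and 37.1% of all tested genes). In CPM Nupr1 was also highest with inhibition and lowest in control. So were the sums of the B and plasma cell markers and of the stroma and endothelium markers given below. The part of any of these cell types in the level of Gda was not tested.

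Sult1a1, a sulfotransferase of phenolic compounds (chr7:126672865-126676432, minus strand), had 29.3, 28.2 and 26.7 CPM in spermidine libraries, 23.0, 24.1 and 22.6 CPM in inhibition libraries and 2.00, 2.15 and 2.06 CPM in control libraries. Control libraries were all near the low end, and spermidine libraries lay just above inhibition libraries. The rise was 11.2-fold with inhibition (log2 fold change 3.49, SE 0.090, edgeR adjusted p = 1.27e-15) and 13.5-fold for spermidine against control (log2 fold change 3.76, SE 0.086, edgeR adjusted p = 3.51e-16). The step between spermidine and inhibition was small, 0.27 on the log2 scale (SE 0.055, edgeR adjusted p = 0.00051). Sult1a1 overlaps 61 bases of Sgf29 on the opposite strand, and no strand-specific step is stated. Sgf29 was at 91.9 CPM in the spermidine group, 102 CPM in the inhibition group and 90.8 CPM in the control group, a much narrower range than that of Sult1a1.

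Aldh1a1, a retinaldehyde dehydrogenase whose activity is used to enrich stem cells (chr19:20492715-20643465, plus strand), had 9.76, 11.4 and 10.4 CPM in spermidine libraries, 7.99, 8.39 and 7.80 CPM in inhibition libraries and 5.64, 5.74 and 4.64 CPM in control libraries. The groups did not overlap and rose in steps, control lowest and spermidine highest. Its log2 fold change was 0.60 with inhibition (SE 0.107, edgeR adjusted p = 8.52e-05), the smallest of the 10, and 0.38 for spermidine against inhibition (SE 0.092, edgeR adjusted p = 0.00203). Its close relative Aldh1a7, which could share reads with it, ran the other way, with 0.201 CPM in the spermidine group, 0.521 CPM in the inhibition group and 1.39 CPM in the control group.

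Tgm2, a transglutaminase that crosslinks proteins and can use polyamines such as spermidine as substrates (chr2:158116402-158146436, minus strand), had 5.84, 5.36 and 4.98 CPM in spermidine libraries, 3.81, 3.74 and 3.65 CPM in inhibition libraries and 0.910, 1.39 and 1.29 CPM in control libraries. The same stepwise order held, with no overlap between groups. Tgm2 rose by 1.62 on the log2 scale with inhibition (SE 0.170, edgeR adjusted p = 2.04e-07) and was 0.54 higher with spermidine than with inhibition alone (SE 0.124, edgeR adjusted p = 0.00146). Against control, the spermidine group was higher by 2.16 (log2, SE 0.157, edgeR adjusted p = 1.80e-09). Tgm2 overlaps 15896 bases of Rprd1b on the opposite strand, and no strand-specific step is stated. Rprd1b was at 13.9 CPM in the spermidine group, 16.9 CPM in the inhibition group and 15.5 CPM in the control group.

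Of the adhesion proteins, Alcam (CD166, a cell adhesion molecule of the immunoglobulin superfamily, chr16:52248996-52454074, minus strand) had 19.9, 19.8 and 20.4 CPM in spermidine libraries, 16.3, 14.9 and 16.9 CPM in inhibition libraries and 4.49, 4.40 and 5.83 CPM in control libraries. Spermidine libraries were highest and almost equal to each other. Alcam rose by 1.69 on the log2 scale with inhibition (SE 0.098, edgeR adjusted p = 7.82e-11), and spermidine libraries were a further 0.33 above inhibition libraries (SE 0.076, edgeR adjusted p = 0.00155).

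Dsg2, a desmosomal cadherin (chr18:20558074-20604521, plus strand), was the least abundant of the 10. It had 2.38, 2.50 and 2.82 CPM in spermidine libraries, 1.54, 1.29 and 0.950 CPM in inhibition libraries and 0.789, 0.590 and 0.671 CPM in control libraries. The groups were separate, but the gap between the lowest inhibition library and the highest control library was narrow. Its log2 fold change with inhibition, 0.87, had the largest SE of the 10, 0.265 (edgeR adjusted p = 0.00766). Dsg2 had the largest rise of the 10 with spermidine added, 1.03 on the log2 scale (SE 0.201, edgeR adjusted p = 0.000377).

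Selp, P-selectin of platelets and endothelium (chr1:164115264-164150026, plus strand), had 10.8, 10.8 and 11.8 CPM in spermidine libraries, 8.05, 11.7 and 10.2 CPM in inhibition libraries and 1.70, 2.25 and 2.27 CPM in control libraries. The spermidine and inhibition ranges overlapped, and both lay above all control libraries. Selp rose by 2.27 on the log2 scale with inhibition (SE 0.154, edgeR adjusted p = 6.47e-10). Spermidine against inhibition gave 0.14 (95% interval -0.10 to 0.37, edgeR adjusted p = 0.303), and -0.01 without inhibition replicate 1, the low library of its group (edgeR adjusted p = 0.919). Selp is also a platelet gene, yet it ran against the platelet markers. Pf4, platelet factor 4, averaged 97.3 CPM in the spermidine group, 104 CPM in the inhibition group and 2673 CPM in the control group. All 13 megakaryocyte and platelet markers tested fell with inhibition, where 36.1% of all tested genes were lower. Markers of stroma and endothelium summed to 51.9 to 54.6 CPM in spermidine libraries, 55.9 to 58.9 CPM in inhibition libraries and 32.7 to 34.3 CPM in control libraries. These markers did not move together. Of 9 tested, 5 were higher and 1 lower with inhibition against control (36.2% and 36.1% of all tested genes). Emcn averaged 28.6 CPM in the spermidine group, 16.3 CPM in the inhibition group and 1.34 CPM in the control group. Lepr ran the other way, at 4.45, 5.99 and 18.1 CPM in the same order of groups. The HSC markers Procr and Ly6a given above ran in the order of Emcn, but Slamf1 did not. The endothelial gene Cdh5 had too few counts to be tested. The part of endothelium in the level of Selp was not tested.

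Cavin2 (chr1:51289126-51302960, plus strand) was the exception in direction. It had 11.5, 9.86 and 11.3 CPM in spermidine libraries, 14.3, 10.7 and 11.1 CPM in inhibition libraries and 52.7, 51.8 and 51.7 CPM in control libraries. The control libraries stood together far above the other 6, which overlapped. Cavin2 fell by 2.13 on the log2 scale with inhibition (SE 0.081, edgeR adjusted p = 2.32e-13) and was 2.26 lower in the spermidine group than in control (a log2 fold change of -2.26, SE 0.080, edgeR adjusted p = 9.98e-14). Spermidine and inhibition differed by -0.13 (log2, 95% interval -0.33 to 0.08, edgeR adjusted p = 0.266). Cavin2 is also abundant in platelets, and its direction was that of the platelet markers given beside Selp. The part of platelet RNA in its level was not tested.

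Levels were compared between genes in TPM, which is scaled for transcript length. Nupr1 was highest in each group, at 103 TPM in the spermidine group, 104 TPM in the inhibition group and 31.7 TPM in the control group, and Tgm2 and Dsg2 were lowest. Dsg2 averaged 0.492 TPM in the spermidine group, 0.175 TPM in the inhibition group and 0.0941 TPM in the control group. The ranks between changed with the group. Cavin2, at 3.06 TPM with spermidine and 2.73 TPM with inhibition, was the second highest in control, at 10.9 TPM. Sult1a1 was the second highest with spermidine, at 18.8 TPM, and the third with inhibition, at 12.8 TPM, but sixth in control, at 0.994 TPM. Some neighbours in the order were not separated, since the ranges of Selp and Gda overlapped in spermidine libraries, those of Cavin2 with Aldh1a1 and Alcam in inhibition libraries, and those of Alcam with Sult1a1 and Selp in control libraries.

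**Figure D3:**
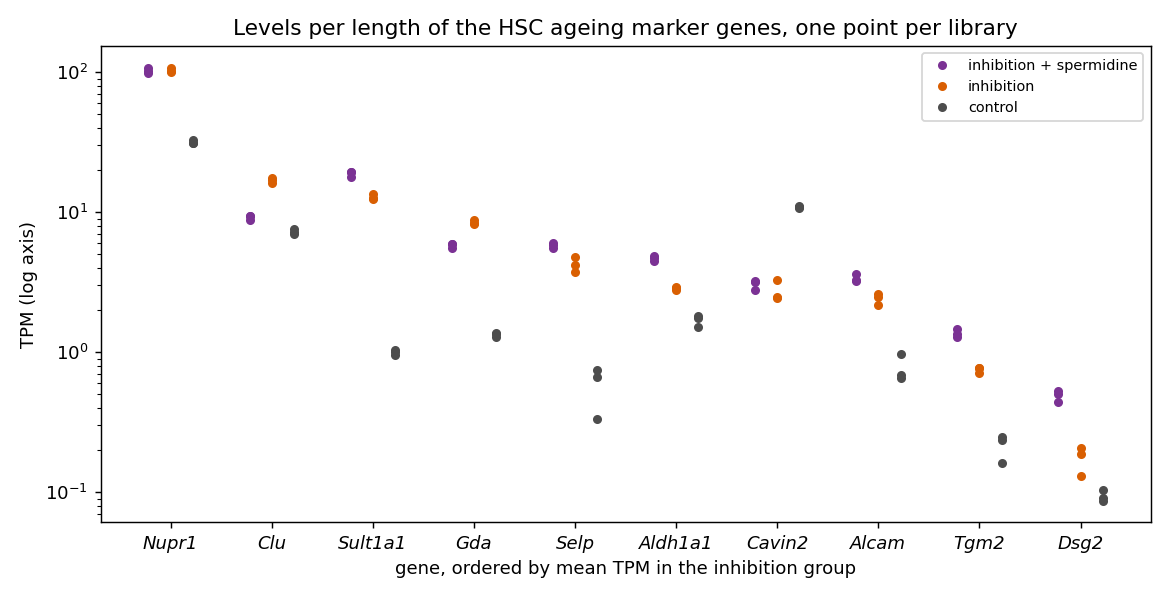
TPM on a log axis for each of the 10 genes, 1 point per library, with the genes ordered by their mean in the inhibition group. Nupr1 is highest in every group, Dsg2 lowest, and Cavin2 has its control libraries above the rest, at a mean of 10.9 TPM.

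The transcript length behind each TPM value was read from the ratio of count to TPM. Relative to all genes, the length of Selp had a log2 ratio of -0.64 for inhibition against control, and the 4.83-fold rise in counts with inhibition was 7.24-fold in TPM. For spermidine against control the length had a log2 ratio of -0.62, and the rise in Selp was 5.30-fold in counts and 9.91-fold in TPM. Length is not all of this last gap, since the counts were scaled by TMM factors and the TPM were not. Selp averaged 2.07 CPM in the control group, and the length was not fixed across control libraries, at 1.67, 1.00 and 1.13 relative to all genes. The length of Alcam spread most within a group, at 2.26, 1.49 and 2.85 in control libraries, and its log2 ratio was 0.06 for inhibition against control. Nupr1 had a log2 ratio of -0.21 both for inhibition and for spermidine against control.

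Other genes known to be higher in aged HSCs were split in direction. Their list shares Vwf with the megakaryocyte and platelet markers, and Slamf1 and Ctnnal1 with the HSC markers. The part of platelet RNA in this list was not tested. Of 36 tested, 15 were higher and 19 lower with inhibition against control, where 36.2% of all tested genes were higher and 36.1% lower. Their median log2 fold change was -0.21, beside 0.02 over all tested genes, and the difference between this list and the 10 genes was not tested. Tm4sf1, a surface protein of the tetraspanin-like family, rose by 3.99 on the log2 scale (SE 0.18), Klhl4 by 3.54, Plscr2 by 3.08 and Oxr1, an oxidation resistance protein, by 1.19. Slamf1 (CD150, used to sort HSCs) fell by 2.56 on the log2 scale, Mt2, a metallothionein, fell by 3.04, Jun, an immediate-early factor, fell by 2.11 and Cd9, a tetraspanin of HSCs and platelets, fell by 1.23. Spermidine against inhibition gave 16 higher and 10 lower of the 36 (29.1% and 28.9% of all tested genes), among them Lmna, the nuclear lamin, 1.18 higher and Tsc22d1 0.83 higher. Mt1 was lower at -0.96 and Gpr183 at -0.55. On library totals 20 were higher and 6 lower. Each gene named here passed edgeR's test at an adjusted p under 0.05. Against control, spermidine libraries had 15 of these genes higher and 14 lower (41.0% and 37.1% of all tested genes), with a median of 0.08, beside 0.06 over all tested genes. Library totals gave 20 higher and 11 lower here.

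A list of genes that fall in aged HSCs covered mainly the lymphoid programme and replication. It was not confined to these, and also held Serpinb1a and Cd34, which is also on the list of HSC markers. Of 23 tested, 16 were higher and 3 lower with inhibition against control, where 36.2% of all tested genes were higher and 36.1% lower, and the median log2 fold change was 0.59. Dntt, which adds bases at antigen receptor joints, rose by 5.23, Serpinb1a by 1.95 and Cd52 by 1.79. Lef1, a factor of lymphoid development, was lower at -2.15, the replication ligase Lig1 at -0.44 and the B-cell adaptor Blnk at -0.50. Among the subunits of the replicative helicase, Mcm3 (0.44), Mcm4 (0.65) and Mcm6 (0.46) were higher, and Mcm2 (0.04), Mcm5 (-0.06) and Mcm7 (-0.01) were not called. With spermidine against inhibition 7 were higher and 12 lower (29.1% and 28.9% of all tested genes), among them Sox4 at 0.62 and Cd34 at 0.50, higher, and Cd52 at -0.94, Serpinb1a at -0.71 and Mcm2 at -0.54. On library totals in place of TMM factors this split became 11 higher and 5 lower. Against control, spermidine libraries had 16 higher and 6 lower (41.0% and 37.1% of all tested genes). B and plasma cell markers summed to 1747 to 1887 CPM in spermidine libraries, 4608 to 5022 CPM in inhibition libraries and 85.0 to 86.3 CPM in control libraries. Ighm belongs both to these markers and to the list, and the part of such cells in the list was not tested.

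**Figure D4:**
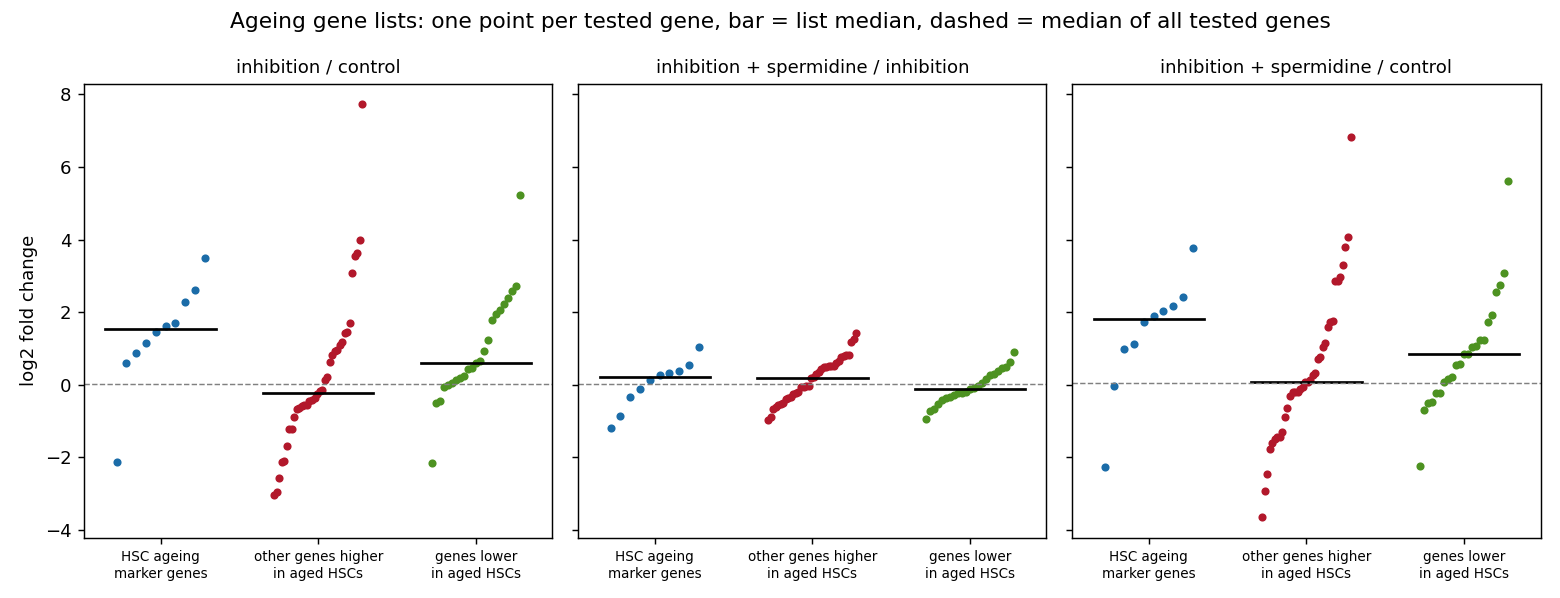
Log2 fold change of each tested gene in the 3 ageing lists, with the list median (bar) and the median of all tested genes (dashed line), for the 3 comparisons. With inhibition the 10 marker genes have a median of 1.53, the 36 other genes higher in aged HSCs have -0.21, and the 23 genes lower in aged HSCs have 0.59.

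Scaling set the sign of some results that involve spermidine. Replacing TMM factors, which equalise the typical gene between libraries, with library totals moved the median of all tested genes by 0.26 on the log2 scale in both spermidine comparisons. It changed the split of all called genes for spermidine against inhibition to 7711 higher and 1793 lower, where TMM gave 4213 higher and 4183 lower. For spermidine against control the split was 7705 higher and 3682 lower on totals, and 5930 higher and 5363 lower with TMM. On totals Clu was 0.24 above control in the spermidine group (edgeR adjusted p = 0.00402), Selp was 0.40 above inhibition (edgeR adjusted p = 0.00436) and Nupr1 was not called against inhibition, while Clu and Gda stayed below inhibition. In the plot of 4 scalings, DESeq2 size factors lie close to TMM, and limma on TPM lies closer to totals for most of the genes.

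**Figure D5:**
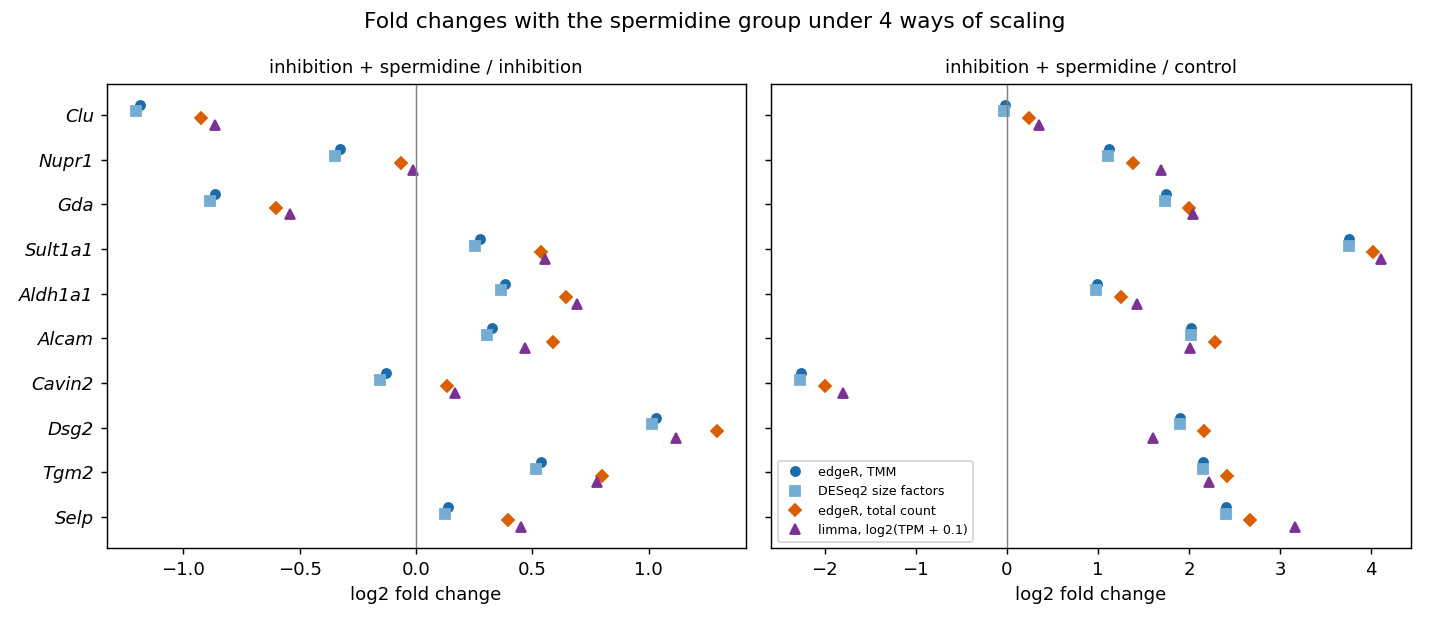
Log2 fold changes of the 10 genes for spermidine against inhibition (left) and against control (right) with edgeR on TMM factors, DESeq2 size factors, edgeR on library totals and limma on log2(TPM + 0.1). Totals lie to the right of TMM by about 0.26 for every gene, and Clu against control is -0.02 with TMM and 0.24 with totals.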

How the data were processed

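Low-input RNA sequencing was deposited for 9 libraries in 3 groups of 3. The authors deposited estimated counts per gene and TPM values for the same libraries; 48.2% of the counts are whole (tolerance 1e-06), and how the fractional ones arose is not given in the sources used here. Trim Galore 0.6.2, STAR 2.6.1d, HTSeq 0.10.0, edgeR 3.24.3 and mm10 are listed per the submitters' processing notes. The lowest summed count of a listed gene is 5, and the deposited TPM columns sum to 937835 to 948801.

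Estimated counts were rounded to whole numbers and all 9 libraries were fitted together in edgeR 4.0.16 (R 4.3.3, quasi-likelihood test, TMM factors of 0.931 to 1.14, default filter on low counts), with Benjamini-Hochberg adjustment over 14461 genes and a threshold of 0.05. SEs and 95% intervals come from that fit. CPM use the TMM factors. An exact test of a single value, 3 libraries against 3, cannot go below p = 0.1 and was not used. Alternatives were DESeq2 1.42.0, library totals, no filter, limma 3.58.1 on log2(TPM + 1) and log2(TPM + 0.1), only the libraries compared, leaving out each library, leaving out 226 marker and immunoglobulin genes, and a replicate block. Within a group, libraries differed by more than counting noise (mean chi-squared per gene 2.45 to 7.75). Libraries with the same number in different groups had residual correlations of -0.05 to 0.07, so the numbers were not taken as pairs.

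The 10 genes, the ageing and cell type lists and the rule for naming further genes were chosen with earlier results of these data known. The rule took, per comparison and direction, the up to 4 called list genes with the smallest p and a mean of at least 1 CPM. Some of these are named here. The Mcm genes given for inhibition against control and the HSC marker Procr were named outside the rule. So were Vwf and Ctnnal1, as genes shared between lists. Gene bounds come from GENCODE M21, in which 19437 listed genes matched by identifier and 17 did not.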

Additional observations from a re-analysis of the deposited data

How the results depend on the processing

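Of 510 values for single genes under alternatives, 496 kept their direction and side of the threshold. With spermidine against control, Clu was -0.02 and not called in the TMM fit, but 0.24 on library totals (adjusted p = 0.00402), 0.31 with limma on log2(TPM + 1) and 0.35 on log2(TPM + 0.1), each called higher. Nupr1 with spermidine against inhibition was not called on totals (-0.06), nor with limma at either pseudocount (-0.01 each), and Selp was called higher on totals (0.40) and on log2(TPM + 1) (0.38). Where neither value was called, Cavin2 with spermidine against inhibition (-0.13) turned positive on totals (0.13), on log2(TPM + 1) (0.13) and on log2(TPM + 0.1) (0.17), Selp turned to -0.013 without inhibition replicate 1 (range -0.013 to 0.27 over libraries left out), and Clu against control turned to 0.0010 without control replicate 3 and to 0.0025 without spermidine replicate 1 (range -0.086 to 0.0025). The cause of these differences was not tested.

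All 12 counts of called genes stayed within 1.5 times their value in the 17 alternatives. Leaving out each library gave 10 to 10, 8 to 8 and 9 to 9 of the 10 genes called for inhibition against control, spermidine against inhibition and spermidine against control. Dsg2 with inhibition had its largest leave-one-out adjusted p at 0.0361. The fit with the replicate block called the same numbers, 10, 8 and 9, and changed no call of the 10 genes. Depth limits Dsg2 most, which averaged 0.683 CPM in the control group.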

Other observations

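Nupr1 and Sult1a1, which rose 2.72-fold and 11.2-fold with inhibition, lie 42003 bases apart on chromosome 7, on the same strand, and Sgf29 lies between them on the other. This region was looked at after the values were seen. Sgf29 had a log2 fold change of 0.16 with inhibition against control (edgeR adjusted p = 0.000662) and -0.15 with spermidine against inhibition. Within 50000 bases on either side, Apobr (2.15), Coro1a (0.81) and Cln3 (0.41) had positive log2 fold changes with inhibition against control, and Slx1b (-0.61) and Bola2 (-0.35) negative ones.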
